A study of Mus musculus with 4 samples.

Results

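C1q macrophages were followed in single-cell RNA sequencing of Td+ cells sorted from endosteal bone marrow of male Col2:Td mice. They were chosen by measured RNA: a cell had 200 to 6000 detected genes and at most 5% of its unique molecular identifiers (UMIs, counted molecules) from mitochondrial genes, at least 10 UMIs of C1qa, C1qb and C1qc together per 10000, at least 1 UMI of Ms4a7 or Adgre1, at least 1 UMI of Tyrobp, and fewer than 300 UMIs of S100a8 and S100a9 per 10000. The rule found 872 cells among 24084 that passed the gene and mitochondrial limits, 3.62% of them. The genes named in the rule therefore describe how the cells were chosen and are not findings.

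The mice carried Col2-Cre and Rosa26 lsl-tdTomato on a B6SJL/F1 background, so that Cre driven by the type II collagen promoter switched on the red reporter in a cell and all its descendants. There was 1 library for each age, with 2 mice pooled at 1 month and 3 mice pooled at 1.5, 3 and 16 months, and no treatment. Cells were taken from the brightest part of the Td signal, so a share below is a share of sorted cells and not of marrow. With 1 library for each age there is no replicate at any age, differences between ages were not tested, and age and library cannot be told apart.

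C1q binds antibody complexes and dying cells and starts the classical complement pathway. In many tissues its 3 chains come mainly from macrophages. Marrow macrophages clear the nuclei that erythroblasts expel, take up dying leukocytes and recycle the iron of hemoglobin. Those at the centre of erythroblastic islands are known for VCAM1, CD169 (Siglec1) and the transcription factor SpiC, while monocytes that have recently entered a tissue carry Ly6c2 and Ccr2.

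The 3 C1q genes lie side by side on the minus strand of chromosome 4 (GENCODE M21, GRCm38): C1qb from 136880129 to 136886187, C1qc from 136889804 to 136893065 and C1qa from 136895917 to 136898803. Below are the 250 bases before the RefSeq start (GRCm38.p6) of C1qb and C1qc, which define the cells, and of Spic and Mrc1, which stood among the genes most enriched over monocytes. Of 5 genes looked for, 4 had an entry. The annotations place some starts differently. By the GENCODE coordinates the Spic window lies inside the gene (88674772 to 88685015). The C1qc and Mrc1 windows lie partly inside their genes. Capitals mark the ETS core AGGAAG or its reverse complement CTTCCT, the kind of letters that PU.1 and SpiC bind, and TGCTGA or its reverse complement TCAGCA, the core of the element that Maf proteins bind. Both strands were searched, and both motifs were chosen with these sequences in view.
C1qb, chr4:136886201-136886450, minus strand: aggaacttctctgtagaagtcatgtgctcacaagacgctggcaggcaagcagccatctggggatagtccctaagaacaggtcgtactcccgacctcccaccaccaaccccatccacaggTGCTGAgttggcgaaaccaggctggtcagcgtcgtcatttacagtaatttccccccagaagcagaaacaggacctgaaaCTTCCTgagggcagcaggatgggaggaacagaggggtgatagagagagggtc
C1qc, chr4:136892915-136893164, minus strand: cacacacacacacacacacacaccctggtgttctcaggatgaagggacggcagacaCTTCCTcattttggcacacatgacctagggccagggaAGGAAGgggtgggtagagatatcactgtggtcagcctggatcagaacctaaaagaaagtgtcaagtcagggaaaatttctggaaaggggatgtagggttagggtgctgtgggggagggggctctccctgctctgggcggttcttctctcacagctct
Spic, chr10:88683024-88683273, minus strand: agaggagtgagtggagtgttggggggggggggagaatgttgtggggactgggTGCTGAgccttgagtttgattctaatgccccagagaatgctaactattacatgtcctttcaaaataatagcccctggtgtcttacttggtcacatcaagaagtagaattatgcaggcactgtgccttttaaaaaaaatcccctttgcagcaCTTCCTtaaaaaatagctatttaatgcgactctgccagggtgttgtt
Mrc1, chr2:14229164-14229413, plus strand: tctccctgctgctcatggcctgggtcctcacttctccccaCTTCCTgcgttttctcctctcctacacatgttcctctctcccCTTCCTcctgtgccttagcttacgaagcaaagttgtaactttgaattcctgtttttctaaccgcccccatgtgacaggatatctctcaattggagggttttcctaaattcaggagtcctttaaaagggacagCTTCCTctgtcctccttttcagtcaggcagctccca

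The ETS core stood in all 4 windows, at -52 in C1qb, at -157 and -194 in C1qc, at -47 in Spic and at -210, -168 and -36 in Mrc1. The Maf core stood at -131 in C1qb and at -198 in Spic. No pair of these matches overlapped. Among all 32851 windows of 250 bases, 29.5% held the ETS core and 16.1% the Maf core, so a match describes the letters and is not a binding site.

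C1q macrophages were unevenly spread over the libraries. From the youngest to the oldest library they were 490, 23, 318 and 41 cells. As shares of the filtered cells, these were 5.90% at 1 month (95% exact interval 5.40 to 6.43), 0.422% at 1.5 months (0.268 to 0.632), 7.61% at 3 months (6.82 to 8.45) and 0.667% at 16 months (0.479 to 0.904). The 1 and 3 month libraries were both high and the other 2 both low. Among cells with a Tyrobp UMI, a general myeloid transcript, the macrophages made up 6.48%, 7.62%, 17.4% and 6.03% in the order of age. On this denominator the 3 month library stood apart from the others. That denominator held 7560 of 8308 filtered cells at 1 month, 302 of 5453 at 1.5 months, 1827 of 4180 at 3 months and 680 of 6143 at 16 months. It thus covered most filtered cells at 1 month and few at 1.5 and 16 months, so these shares are not on a like basis. Intervals here cover counting error only.

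**Figure D1:**
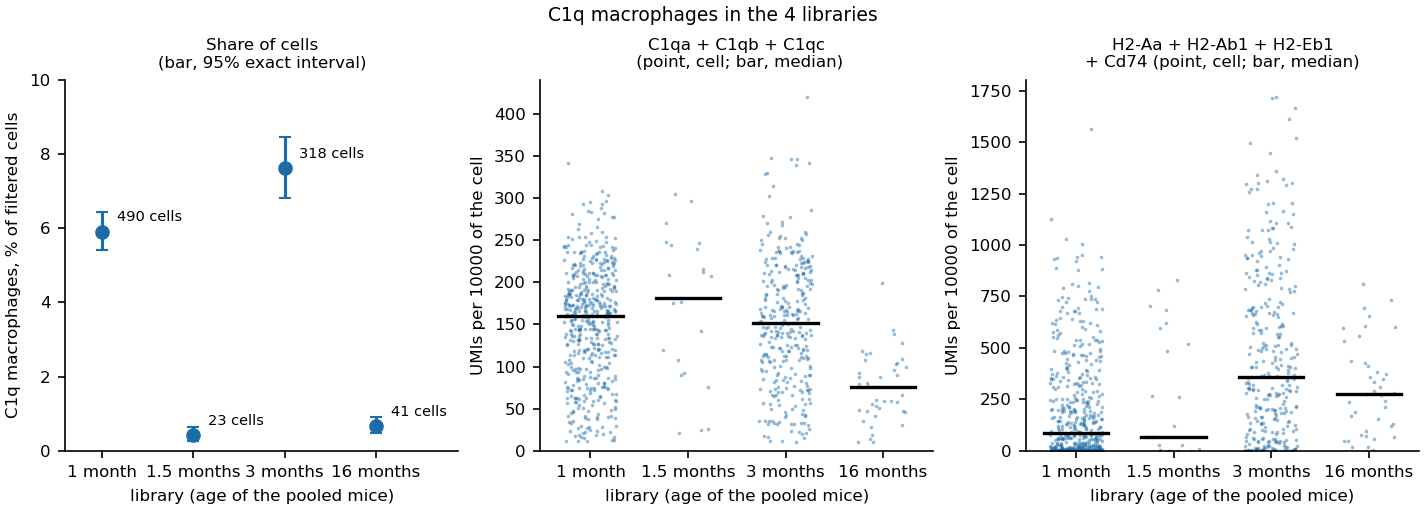
The left panel plots the C1q macrophages as a percent of filtered cells by library with 95% exact binomial intervals and cell numbers. The other panels plot, 1 point for each macrophage, the UMIs per 10000 of the 3 C1q genes (used by the rule) and of 4 MHC class II genes (not used), with the median as a bar. The C1q median at 16 months was 75.8 against 151 to 182 in the other libraries, and the MHC class II medians were higher at 3 and 16 months (361 and 275) than at 1 and 1.5 months (87.5 and 65.9).

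The depth behind a macrophage differed between libraries, with medians of 8258.5, 6766, 4371 and 10965 UMIs in the order of age. The libraries held 32672631 to 108227184 UMIs. The 16 month table lists 31054 genes against 27999 in the other 3, so that comparisons over ages use the 26600 genes they share. Pairs of libraries shared 1 to 61 barcodes, and 1 barcode was a macrophage in both the 1 and the 1.5 month library.

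The median C1q level, a rule value, was 160, 182, 151 and 75.8 UMIs per 10000 in the order of age. The lowest cell inside the limit had 11.8, 21.1, 10.6 and 10.2 UMIs per 10000. The highest cell just outside, which met every other criterion, had 7.74, 1.75, 6.72 and 0.402. Between 5 and 10 per 10000 lay 4, 0, 6 and 0 cells, and between 10 and 15 lay 6, 0, 4 and 3, so few cells stood near the limit. The mitochondrial limit mattered more at 3 and 16 months. There 83 and 44 cells met all other criteria with 5 to 10% mitochondrial UMIs, against 6 at 1 month and 1 at 1.5 months. The limit on S100a8 and S100a9 alone left out 44, 0, 7 and 1 cells in the order of age. The need for Ms4a7 or Adgre1 alone left out 12, 0, 26 and 5 cells, and that for Tyrobp 0, 0, 3 and 4.

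Most markers that the rule did not use bore out the macrophage label. Of 16 macrophage identity genes outside the rule, 11 were higher and 2 lower (Cd14 and Lyz2) in the comparison with monocytes below. Levels are given as CPM, the UMIs of a gene per 1000000 UMIs of all genes, summed over the macrophages of a library. Csf1r, the receptor for the macrophage growth factor CSF1, was at 496, 536, 441 and 680 CPM from the youngest to the oldest library. Mrc1, the mannose receptor CD206, was at 277, 445, 458 and 695 CPM. Mertk, a receptor for dying cells, was at 25.1, 64.3, 71.2 and 140 CPM. Aif1 and Lgmn, which encode IBA1 and a lysosomal protease, lay at 885 to 1400 and 901 to 1274 CPM. In the neutrophils of the same libraries, set apart by S100a8 and S100a9, Csf1r was at most 15.7 CPM at 1, 3 and 16 months.

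Not every marker of marrow macrophages was abundant. Siglec1 was at 9.45, 16.1, 16.9 and 17.2 CPM, and after thinning each cell to 3000 UMIs it gave a UMI in 2.45% of macrophages at 1 month and 6.91% at 3 months, against 0.0376% and 0.371% of neutrophils. Timd4, a phosphatidylserine receptor of long-lived tissue macrophages, was at 4.31 to 19.4 CPM. Cd163, the receptor for hemoglobin bound to haptoglobin, was at 12.5, 5.36, 76.8 and 0 CPM, where 0 UMIs at 16 months allow up to 6.46 CPM. Cd5l, a secreted scavenger protein of iron-recycling macrophages, was at 1.07, 10.7, 124 and 19.4 CPM. The 3 month library was the highest of the 4 for Cd163 and Cd5l, with Poisson intervals of 63.8 to 91.6 and 107 to 142 CPM that met none of the others.

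Some macrophages carried RNA of other lineages. By 6 sets of lineage markers, 204 of 490, 6 of 23, 82 of 318 and 14 of 41 macrophages were marked in the order of age. The largest set at 1 month was cells with at least 2 UMIs of the B cell genes Cd79a and Cd79b, at 24.1% of macrophages, 12.7% of monocytes and 20.2% of neutrophils. Hemoglobin marked 19, 2, 33 and 6 macrophages. The tomato reporter transcript was found in all macrophages except 1 at 3 months and 5 at 16 months, at 2347, 2064, 1967 and 853 CPM, and neutrophils held 2770, 2701, 2657 and 667 CPM of it. Doublets and free RNA were not separated further, and no doublet caller was run.

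To see which genes set the macrophages apart from the nearest myeloid class, they were compared with monocytes of the same library, chosen by UMIs of Ly6c2, Ccr2 and Tyrobp, by no Siglech UMI and by low S100a8, S100a9, Mpo, Elane and Prtn3. Macrophages were higher for receptors that clear dying cells, for the handling of heme, iron and lipid, for antigen presentation and for a distinct set of chemokines, and lower for monocyte and cell cycle genes. The 1, 3 and 16 month libraries entered (511, 86 and 33 monocytes), with library as a block in edgeR, and the 1.5 month library, which had 1 monocyte, was left out. Of 7388 genes tested outside the rules for either class, 1161 were higher (15.7%) and 952 lower (12.9%) in macrophages at a Benjamini-Hochberg adjusted p below 0.05. The classes were drawn on the same cells, so these tests describe the other genes of cells already chosen.

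Iron recycling genes were higher in macrophages almost throughout. Of 20 tested, 19 were higher and 1 was lower, with a median log2 fold change of 2.26 against 0.00 over all genes tested. Spic, which drives the program of red pulp and island macrophages, was at 146, 207 and 198 CPM in the macrophages of the 1, 3 and 16 month libraries and at 1.53, 0 and 0 CPM in monocytes. The ranges were far apart, and the log2 fold change was 7.08 (SE 0.43, adjusted p = 1.08e-06). Hmox1, the enzyme that opens the heme ring, was at 422, 1395 and 527 CPM against 47.8, 86.1 and 29.0 CPM, a log2 fold change of 3.77 (SE 0.28). Slc40a1, the iron exporter ferroportin, was at 65.5, 493 and 243 CPM against 3.93, 1.69 and 4.14 CPM, a log2 fold change of 5.26 (SE 0.47). Every library kept the order, with the lowest macrophage value over the highest monocyte value for each of these genes.

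Around these stood the rest of the heme and iron path. Blvrb and Blvra, which reduce biliverdin, rose by log2 2.85 and 0.93, and the ferritin chains Fth1 and Ftl1 by 1.75 and 1.44. Slc48a1 and Slc11a1, which move heme and iron out of the phagolysosome, were higher by 1.54 and 2.41, and Trf, transferrin, by 2.11. Epor, the erythropoietin receptor, stood at 10.7 to 12.9 CPM in macrophages and 0 to 0.654 CPM in monocytes. Siglec1 was higher too, by log2 4.26 (SE 0.62, adjusted p = 0.000353). Hp, haptoglobin, which binds free hemoglobin, was the gene that was lower, at 153, 225 and 611 CPM against 802, 841 and 1125 CPM.

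Vcam1, the adhesion molecule of island macrophages, was at 315, 1602 and 913 CPM in macrophages against 10.5, 22.0 and 217 CPM in monocytes, a log2 fold change of 4.30 (SE 0.63, adjusted p = 0.000366). Stromal cells of the same sort, set apart by Cxcl12, held 698, 937 and 1800 CPM of Vcam1, and neutrophils 35.4, 126 and 274 CPM. The macrophages thus lay over neutrophils and monocytes in each of the 3 libraries, and over the stromal cells at 3 months alone.

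Beside the iron genes, RNA of erythroid cells was higher in macrophages. All 9 erythroid markers tested were higher, with a median log2 fold change of 3.23. Hba-a1, an alpha globin, was at 3643, 11455 and 10228 CPM in macrophages and at 1186, 98.0 and 37.2 CPM in monocytes, a log2 fold change of 5.80 (SE 1.12, adjusted p = 0.00222). Without the lineage-marked cells it was 1.51 (SE 0.34, adjusted p = 0.0013), and without the library block its adjusted p was 0.0513. The iron list gave 16 higher and 1 lower of 18 without those cells. Siglec1 and Epor were not tested there, and Tfrc no longer passed (adjusted p = 0.0521). The part of carried erythroid RNA in what remained was not tested.

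**Figure D2:**
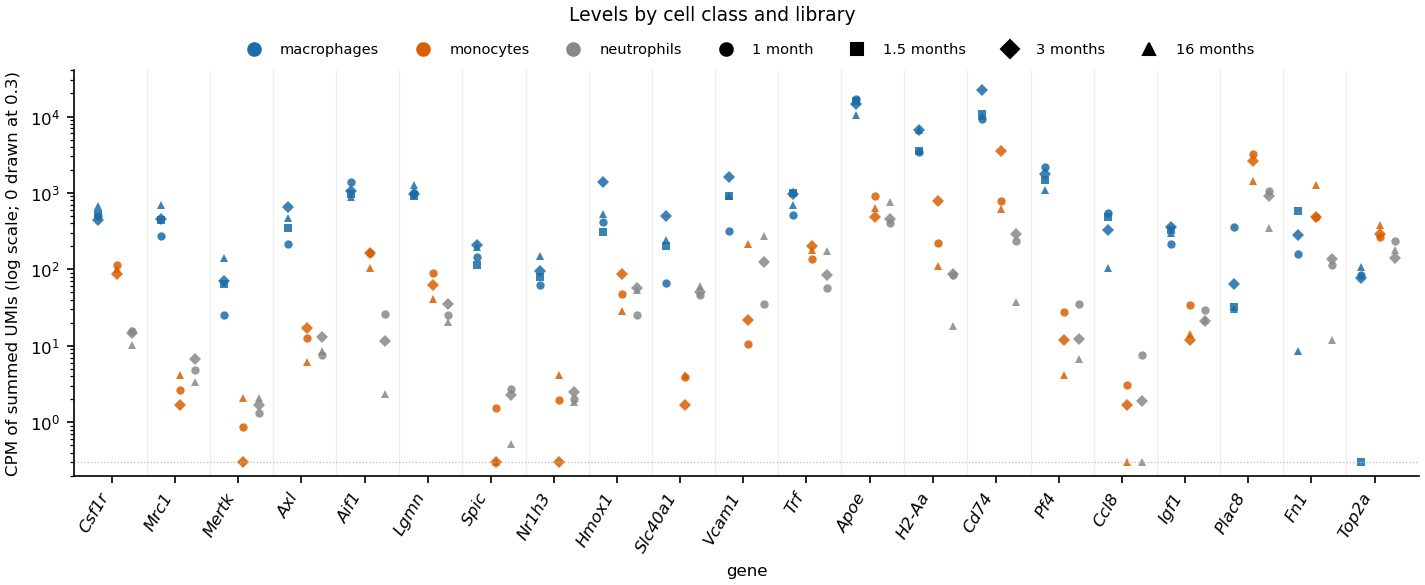
Each point is the CPM of a gene over the summed UMIs of a cell class in 1 library, on a log axis, with macrophages in blue, monocytes in orange and neutrophils in grey, and 0 drawn at 0.3. Monocytes and neutrophils of the 1.5 month library (1 and 29 cells) are not drawn. Mrc1 and Spic lay at 113 CPM or more in the macrophages of every library and at 6.71 CPM or less in the other classes drawn.

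Receptors for dying cells and scavenger receptors were higher in 10 of 16 tested and lower in none. Axl and Mertk, which recognise phosphatidylserine through a bridging protein, were at 212, 663 and 474 CPM and at 25.1, 71.2 and 140 CPM in macrophages. In monocytes they were at 6.20 to 16.9 and 0 to 2.07 CPM, and the log2 fold changes were 4.88 (SE 0.35) and 5.48 (SE 0.44). Gas6, such a bridging protein, was higher by 1.66 (SE 0.39, adjusted p = 0.00711), but stromal cells held 1619, 2150 and 3240 CPM of it against 117.04, 160 and 499 CPM in macrophages. Stab1 and Cd36, scavenger receptors, were higher by 4.37 and 3.32, and Abca1, which exports the cholesterol of engulfed cells, by 4.40. Mfge8, Pros1, Elmo1 and Dock1 did not pass the test, with log2 fold changes of 0.58, -0.02, 0.53 and 0.59.

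Genes of lipid handling were higher in 12 of 15 and lower in 1. Apoe, the lipid carrier, was at 16836, 14519 and 10538 CPM in macrophages against 903, 481 and 643 CPM in monocytes. Nr1h3, the oxysterol receptor LXR alpha, was at 61.8, 94.3 and 151 CPM against 1.96, 0 and 4.14 CPM, a log2 fold change of 5.30 (SE 0.40, adjusted p = 4.12e-06). Its targets Abca1, Abcg1 and Pltp were higher by 4.40, 3.05 and 4.74. Trem2, a lipid-sensing receptor, was higher by 2.12 (SE 0.25). Lgals3, galectin 3, was lower by -1.09, and Plin2 and Cd9 did not pass, at 0.00 and 0.28.

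Among markers of resident-type macrophages 9 of 11 were higher and 2 lower. Mrc1 was at 277, 458 and 695 CPM against 2.62, 1.69 and 4.14 CPM, a log2 fold change of 7.07 (SE 0.34, adjusted p = 3.48e-07). Folr2, a folate receptor, and Cbr2, a carbonyl reductase, were higher by 5.99 and 5.08. Igf1, a growth factor that acts on bone cells and erythroid cells, was at 215, 363 and 295 CPM against 34.7, 11.8 and 14.5 CPM. F13a1 and Chil3, which monocytes also express, were the lower ones, at -2.57 and -3.82.

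Antigen presentation genes were higher in 7 of 9 and lower in none. H2-Aa, an MHC class II chain, was at 3480, 6757 and 6738 CPM in macrophages against 219, 777 and 110 CPM in monocytes, a log2 fold change of 4.33 (SE 0.44). Cd74, the invariant chain, was at 9280, 22090 and 10138 CPM against 774, 3503 and 622 CPM. Cd86, a costimulatory ligand, was higher by 1.52 (SE 0.25), while Cd80 and Cd40 did not pass the test. Of 5 dendritic cell markers tested, 4 were higher in macrophages (Batf3, Bst2, Clec10a and Itgax) and 1 was lower. Without the lineage-marked cells Batf3 no longer passed (adjusted p = 0.0706). Itgax was higher at 2.93 (9.99 to 40.9 CPM in macrophages) and Cd209a lower at -2.09. Flt3, Zbtb46 and Xcr1 were too low to be tested.

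Of complement genes outside the rule, 5 of 14 were higher and 1 lower. C3ar1 and C5ar1, the receptors for the anaphylatoxins, were higher by 4.71 and 2.06. Cfp, properdin, was higher by 1.20, and Cd55, which limits complement on the cell surface, by 2.95. Cd55 was not tested without the lineage-marked cells. C3 was the lower gene, at 55.6, 44.3 and 177 CPM against 158, 120 and 327 CPM. Of Fc receptors, 6 of 7 were higher, from Fcgr3 at 0.61 to Fcrls at 6.56.

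Chemokines differed both ways, with 7 of 16 higher and 2 lower. Ccl8 was at 542, 332 and 105 CPM in macrophages against 3.05, 1.69 and 0 CPM in monocytes (log2 fold change 7.56, SE 0.37). Ccl12 and Ccl7, ligands of CCR2, were higher by 7.14 and 4.83, Pf4 by 6.87 and Cxcl16, a membrane-bound ligand, by 4.62. Ccl6 and Ccl9 were lower at -1.31 and -1.25. Ccl2 and Cxcl2 did not pass the test and their values overlapped between the classes.

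Growth factors and cytokines were higher in 14 of 22 and lower in 2. Pdgfb, a growth factor for perivascular mesenchymal cells, was at 31.6, 44.9 and 170 CPM against 0.218, 0 and 0 CPM. The monocytes held 1 UMI of it in all, so the size of its fitted log2 fold change, 7.60 (SE 0.52), depends on the prior count. Gdf15, a stress-induced member of the TGF beta family, was higher by 6.19. Il10, Il18 and Il18bp, the last of which neutralises IL-18, were higher by 4.87, 3.17 and 5.49, and Hbegf by 3.68. Il1b and Osm were lower at -0.86 and -1.34.

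Other genes with the largest increases by rule were Fcna, a ficolin of the lectin pathway of complement, at 7.04, Pla2g2d, a secreted phospholipase, at 6.83, Gpr34, a lysophosphatidylserine receptor, at 5.91, and Cela1, a protease, at 5.84. Those lower included Itgb7 at -5.37, Plac8 at -4.51, F10 at -4.51 and Slpi, which encodes a protease inhibitor, at -4.14.

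Of 22 transcription factors, 9 were higher and 2 lower. Spi1, which encodes PU.1, was at 488, 311 and 260 CPM in macrophages and 325, 373 and 360 CPM in monocytes, so the values overlapped (log2 fold change 0.02, adjusted p = 0.958). Maf, a factor of mature macrophages, was higher by 3.44. Pparg and Bhlhe41 were higher by 3.75 and 3.09, at 19.4 to 46.8 CPM in macrophages, and without the lineage-marked cells Bhlhe41 stood at 6.12 (SE 0.65). Irf5 and Klf4 were lower at -0.99 and -0.66.

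Genes of bone resorption were higher in 7 of 9 tested. Of these 7, Car2 was also counted among the erythroid markers and Mmp9 among the neutrophil markers. Without the lineage-marked cells Car2 no longer passed (adjusted p = 0.0644). Acp5, tartrate-resistant acid phosphatase, was at 251, 154 and 136 CPM against 33.8, 16.9 and 6.20 CPM (log2 fold change 3.26, SE 0.29), and Tnfrsf11a, the receptor RANK, at 31.8 to 38.8 CPM against 0 to 3.93 CPM. Ctsk, the collagen-degrading protease of osteoclasts, was only at 47.7, 42.4 and 21.5 CPM (log2 fold change 0.97, adjusted p = 0.0384). Calcr, Ocstamp and Dcstamp, which mark osteoclasts and their fusion, were too low to be tested.

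Cell cycle genes were lower in 14 of 16 and higher in none. Top2a was at 83.3, 76.2 and 108 CPM in macrophages against 263, 287 and 381 CPM in monocytes (log2 fold change -1.74, SE 0.21), and Mki67 at 60.3, 41.8 and 121 CPM against 133, 106 and 259 CPM. Monocyte markers outside the rule were lower in 9 of 10. Lyz2 and Cd14, shared myeloid genes counted above among the macrophage identity genes, were lower at -1.18 and -0.94. Interferon genes gave 5 higher and 3 lower of 18, and immediate early and stress genes 2 and 1 of 16. Of 25 lysosome genes, 15 were higher, among them Lgmn at 4.10 and Ctsb at 2.59.

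Markers of the cells that could be carried along moved with this comparison. Of 10 stromal markers tested, 6 were higher in macrophages (Col1a1, Col1a2, Col3a1, Sparc, Bglap and Kitl), with none of the 13 markers at 0 in either class. Their summed level was 9934, 6386 and 6284 CPM in macrophages and 3224, 1863 and 5689 CPM in monocytes at 1, 3 and 16 months. Of 8 chondrocyte markers 2 were higher. Neutrophil markers gave 1 higher and 1 lower of 7, and of lymphoid markers 2 were tested and neither passed. Without the lineage-marked cells, 5 of 8 stromal markers passed, with a median of 0.63 in place of 1.46. Bglap, Col3a1 and Sparc passed in both fits, Cxcl12 and Igfbp5 passed only without those cells, Col1a1 and Col1a2 no longer passed (adjusted p = 0.107 and 0.119), and Kitl was not tested. Over all genes the counts were then 1099 higher and 912 lower. Further genes named above kept their call without those cells but moved by more than 1.5-fold: Vcam1 to a log2 fold change of 5.72, Nr1h3 to 6.21, Hp to -2.70, Gas6 to 3.20, Apoe to 5.23, Pltp to 5.62, Igf1 to 4.75, Il10 to 6.57, Ccl12 to 8.26, Ccl7 to 5.73, Cxcl16 to 5.25, Cd209a to -1.47 and Mki67 to -1.94. The part of carried RNA in single results was not tested further.

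**Figure D3:**
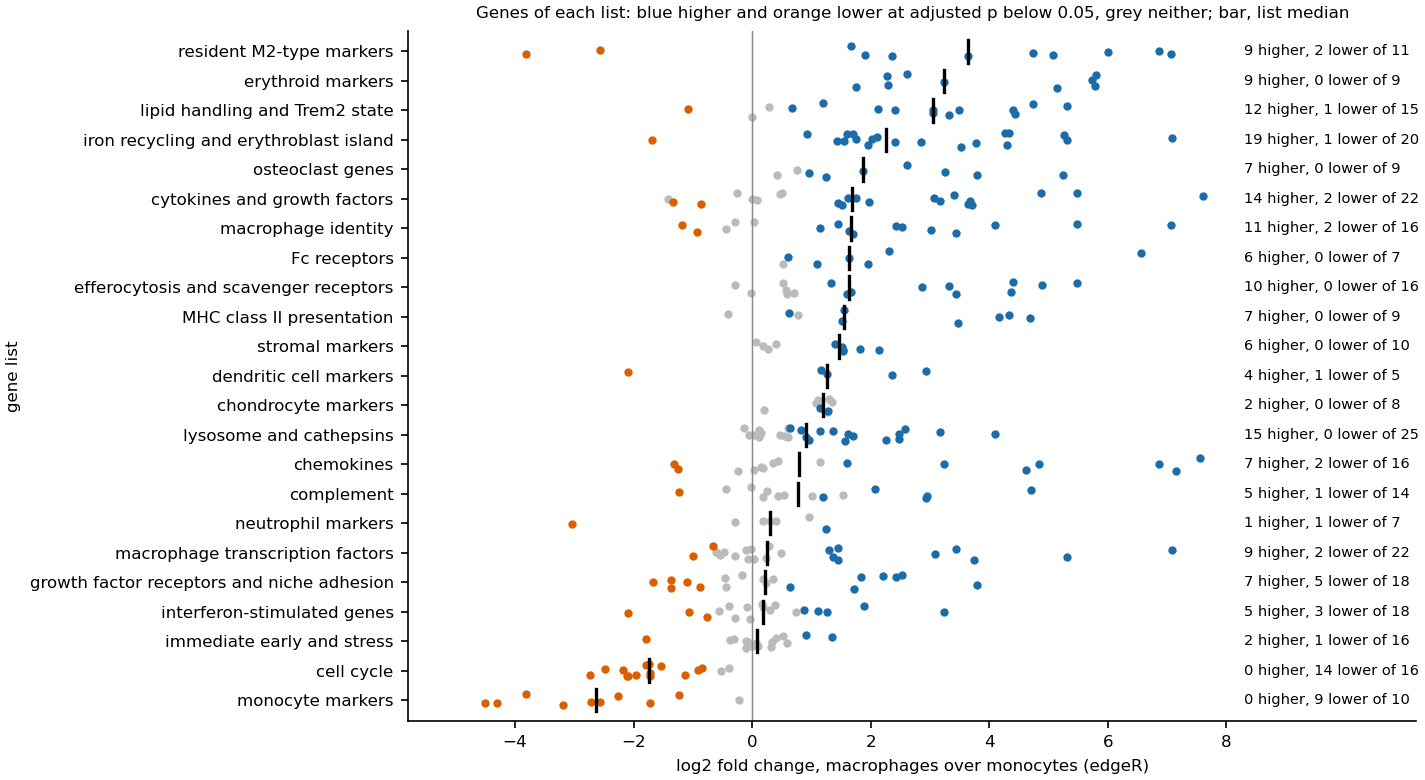
Each point is a gene of the list named at the left, placed at its log2 fold change of macrophages over monocytes from edgeR, blue where higher and orange where lower at an adjusted p below 0.05 and grey otherwise, with the list median as a bar and the counts at the right. Iron recycling genes were higher in 19 of 20 and cell cycle genes lower in 14 of 16.

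Within the macrophages, cells with and without a Vcam1 UMI were compared next, because VCAM1 marks the macrophages of erythroblastic islands. Macrophages with Vcam1 held more RNA of the iron exporter, of ficolin and of receptors for dying cells, and those without held more of genes shared with monocytes and of Folr2 and Lyve1. Vcam1 was found in 265 of 490 macrophages at 1 month (54.1%), 15 of 23 at 1.5 months (65.2%), 235 of 318 at 3 months (73.9%) and 34 of 41 at 16 months (82.9%). After thinning to 3000 UMIs it was in 38.2%, 52.2%, 68.7% and 63.2%, against 6.54%, 17.2%, 18.6% and 23.9% of neutrophils. In neutrophils, too, the share was lowest at 1 month. Median depth was close on both sides, 8107 and 8552 UMIs at 1 month and 4301 and 4482 at 3 months, with and without Vcam1.

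Only the 1 and 3 month libraries had at least 10 cells on each side. Of 8601 genes tested with library as a block, 149 were higher (1.73%) and 135 lower (1.57%) with Vcam1. The test rests on 2 libraries with 1 residual degree of freedom, and without the block no gene passed, while 585 had an unadjusted p below 0.05. The counts moved widely with the processing, from 33 and 34 with DESeq2 to 359 and 337 with relative log expression size factors, so the genes named below are given with their values in each library. All 20 genes named by rule kept their direction in every alternative in which they were tested.

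Slc40a1 was at 105 CPM with Vcam1 and 18.7 CPM without at 1 month, and at 659 and 23.8 CPM at 3 months. It was found in 106 of 265 cells against 24 of 225 at 1 month, and in 147 of 235 against 9 of 83 at 3 months. The log2 fold change was 3.34 (SE 0.39, adjusted p = 0.00158). In the libraries outside the test the order was the same, at 304 against 29.3 CPM at 1.5 months and 273 against 34.6 CPM at 16 months, where the values without Vcam1 rest on 2 UMIs each, in 8 and 7 cells.

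Of 20 iron recycling genes, 5 were higher and none lower. Besides Slc40a1 these were Trf at 1.47, Hpgd at 1.25, Blvrb at 0.83 and Hebp1, a heme-binding protein, at 0.80. Spic and Hmox1 did not pass, at 0.98 (adjusted p = 0.083) and 0.84. Spic was at 170 against 117.1 CPM at 1 month and at 254 against 73.7 CPM at 3 months. Cd5l was found in 41 of 235 cells with Vcam1 and 0 of 83 without at 3 months, and in 5 of 265 and 0 of 225 at 1 month. The remaining libraries gave 1 of 15 and 1 of 34 cells with Vcam1 and 0 of 8 and 0 of 7 without, so no macrophage without a Vcam1 UMI had a Cd5l UMI in any library.

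Fcna was at 163 and 28.9 CPM at 1 month and 715 and 59.4 CPM at 3 months, with and without Vcam1 (log2 fold change 2.92, SE 0.26, adjusted p = 0.000251). Cd209f, a C-type lectin, was at 464 against 67.2 CPM and at 165 against 19.0 CPM (2.78, SE 0.21). Ccr3, a chemokine receptor better known from eosinophils, was found in 32 of 265 against 7 of 225 cells at 1 month and in 62 of 235 against 0 of 83 at 3 months, and in 0 of 41 at 16 months. Fabp4, a fatty acid carrier, was higher by 2.89, Sema4b and Sema6d, which encode semaphorins, by 2.48 and 2.20, and Cela1 by 2.44.

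Receptors for dying cells and scavenger receptors were higher in 5 of 20 and lower in none. Axl was at 300 and 109 CPM at 1 month and at 841 and 162 CPM at 3 months (log2 fold change 1.82, SE 0.22). Mertk was higher by 1.82 and Stab2 by 2.73, the last from 17 against 3 cells and 30 against 1 cell. Mrc1 differed less, at 345 against 197 and 521 against 280 CPM (0.79, adjusted p = 0.0195). Csf1r did not differ beyond its error, at a log2 fold change of 0.00, nor did Trem2 at 0.01.

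Secreted factors differed both ways. Il18 and Il18bp were higher with Vcam1 by 1.89 and 1.90, Igf1 by 1.43, and the chemokines Ccl8, Cxcl9 and Cxcl10 by 1.69, 1.75 and 2.08. Ccl9, Cxcl1, Cxcl2 and Ccl24 were lower, from -1.53 for Cxcl2 to -2.10 for Ccl9. Cxcl2, a neutrophil attractant, was at 517 against 1083 CPM and at 436 against 1638 CPM. Il1rn, the antagonist of the interleukin 1 receptor, and Tgfbi were lower at -1.43 and -1.40.

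The macrophages without Vcam1 held more RNA shared with monocytes. S100a4 was at 102 with and 564 CPM without Vcam1 at 1 month and at 52.5 and 587 CPM at 3 months (log2 fold change -2.97, SE 0.22, adjusted p = 8.35e-05). Ccr2, the receptor that lets monocytes leave the marrow, was at 17.1 against 61.6 and 16.9 against 85.6 CPM (-2.09, SE 0.25). S100a6, S100a10, Plp2 and Lat2 were lower by -2.05 to -2.28. Of 12 monocyte markers tested, 3 were lower and none higher, and Ly6c2, Plac8 and Chil3 stood at 0.22, -0.29 and 0.07. The difference thus lay in some monocyte genes and was not seen in others.

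Folr2 was lower with Vcam1, at 62.1 against 142 CPM and 48.3 against 212 CPM (-1.66, SE 0.23), and so was Pltp at -1.01. Lyve1, a hyaluronan receptor of macrophages along vessels, had 0 UMIs in the 265 and 235 cells with Vcam1 and was found in 12 of 225 cells without at 1 month and in 8 of 83 at 3 months. Set against a floor of 3 counts with Vcam1, the measured Lyve1 level without Vcam1 was 13.3-fold higher at 1 month and 25.3-fold at 3 months. These ratios leave out the counting error of the 34 and 27 Lyve1 UMIs without Vcam1 at 1 and 3 months. Retnla, a resistin-like protein of alternatively activated macrophages, had the largest decrease, -5.84 (SE 0.39), but 345 of its UMIs at 1 month came from 10 cells and its 28 UMIs at 3 months from 2 cells. Resident-type markers as a whole gave 2 higher and 4 lower of 14, so they did not move together.

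MHC class II genes were lower with Vcam1 in 4 of 11 tested and higher in none. H2-Eb1 was at 1563 against 3290 CPM at 1 month and 4584 against 6560 CPM at 3 months (-0.85, SE 0.14, adjusted p = 0.00958), and Cd74 at 6942 against 12023 and 20186 against 27439 CPM (-0.67, SE 0.11). H2-Aa and H2-Ab1 were lower at -0.66 and -0.75. None of the 4 passed without the lineage-marked cells, where Cd74 stood at -0.51 (adjusted p = 0.165), or with DESeq2. After thinning, H2-Aa gave a UMI in 72.2% of cells with a Vcam1 UMI and 70.0% without at 1 month, and the intervals of these shares overlapped (65.2 to 78.5 and 64.5 to 75.1). At 3 months the share was 89.9% with and 81.4% without, at 1.5 months 75% and 36.4%, and at 16 months 91.7% and 100%, with overlapping intervals in each. By this measure the cells with Vcam1 were thus not lower at 1, 1.5 or 3 months.

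Markers of other cells moved with the Vcam1 split as well. Of 11 stromal markers 5 were higher with Vcam1 (Adipoq, Bglap, Cxcl12, Igfbp5 and Sparc), and their list summed to 13808 against 5390 CPM at 1 month and to 6416 against 6301 CPM at 3 months. Of 10 erythroid markers 4 were higher, and of 12 neutrophil markers 3 (Elane, Mpo and Prtn3). Lineage-marked cells were 124 of 265 with and 80 of 225 without Vcam1 at 1 month, and 74 of 235 and 8 of 83 at 3 months. With those cells left out, 38 genes were higher and 40 lower, no stromal (0 of 8), erythroid (0 of 6) or neutrophil (0 of 12) marker passed, and 5 of 20 iron genes still did, with Slc40a1 at 3.64 (adjusted p = 0.0116). Axl, Cd209f, Trf and S100a4 also passed without those cells. Mertk (adjusted p = 0.0696), Mrc1 (0.055), Ccr3 (0.0538), Igf1 (0.0729), Il18bp (0.09004), Cxcl10 (0.0604) and Cxcl1 (0.0666) did not, at log2 fold changes of 1.85, 0.83, 4.18, 1.63, 1.66, 2.13 and -1.41, and Stab2 was not tested.

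**Figure D4:**
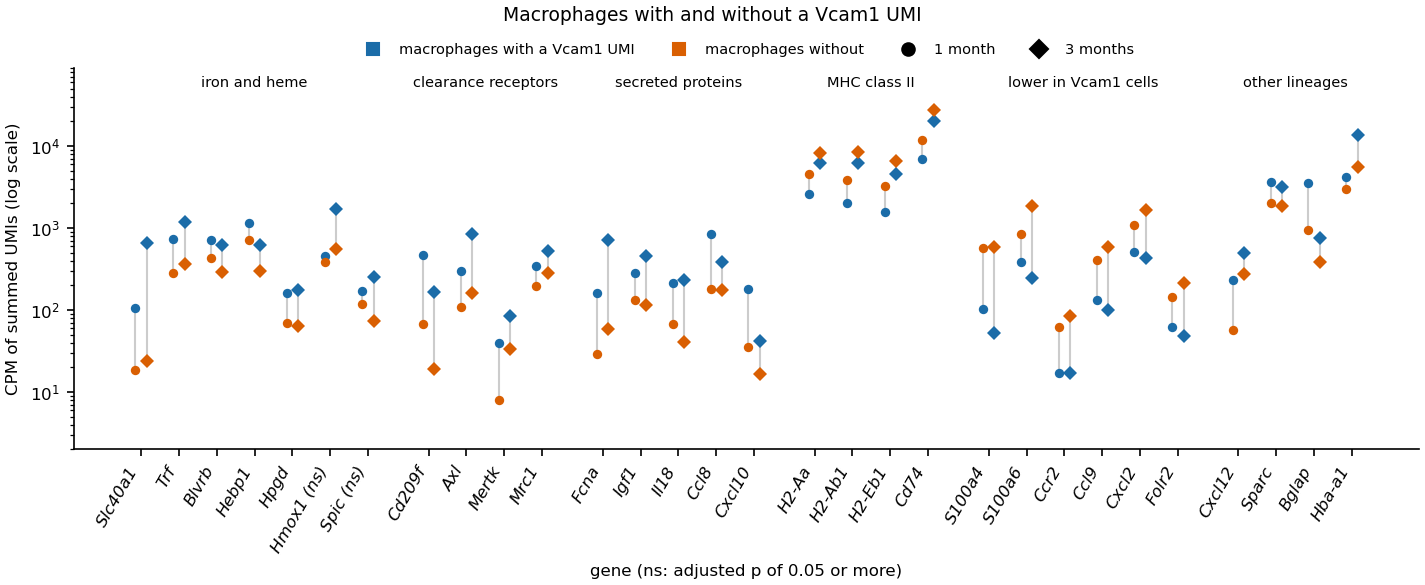
Points give the CPM of a gene over the summed UMIs of the macrophages with (blue) and without (orange) a Vcam1 UMI at 1 month (circles) and 3 months (diamonds), on a log axis, joined within a library. Slc40a1 lay at 105 and 659 CPM with Vcam1 and at 18.7 and 23.8 CPM without, while H2-Aa and S100a4 lay the other way.

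Between ages, values of the macrophages are given side by side without a test. The 16 month library stood apart in many genes, and a share of these had like ratios in the monocytes and neutrophils of the same library. The 1, 3 and 16 month libraries had at least 30 macrophages, and among 1793 genes with 100 CPM or more in 1 of them, 344 (19.2%) were at least 2-fold higher and 212 (11.8%) at least 2-fold lower at 16 months than the mean of the other 2 and outside their range. The ratios use counts of at least 3 in each library. Atp5o had 0 UMIs at 16 months in macrophages, monocytes, neutrophils and stromal cells. It was at 358, 322 and 269 CPM in macrophages at 1, 1.5 and 3 months. Mia2 had 0 UMIs in these classes at 1, 1.5 and 3 months and 105 CPM in macrophages at 16 months. Whether the 16 month library counts every shared gene like the others was not tested, which limits all ratios by age.

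The 8 genes with the largest ratios were higher at 16 months in monocytes and neutrophils as well. Gm42418, a transcript that overlaps ribosomal RNA, was at 235, 166, 183 and 20172 CPM in macrophages from the youngest to the oldest library, a log2 ratio of 6.59, beside 6.41 in monocytes and 6.88 in neutrophils. Lars2 had ratios of 6.07, 6.89 and 7.51 in the 3 classes, and Ncoa4, a receptor that delivers ferritin to lysosomes, of 5.29, 4.06 and 4.74. Col2a1, the collagen of cartilage, was at 768, 8534, 1452 and 4.31 CPM, and Ngp and Camp, neutrophil granule genes, at 1723, 21.4, 302 and 19.4 CPM and at 1864, 53.6, 306 and 28.0 CPM. All 10 neutrophil markers at this level were at least 2-fold lower at 16 months in macrophages, while their ratios in the neutrophils themselves ran from -1.66 to 0.64. These 10 include S100a8 and S100a9, which the rule limited. Cxcl12, the stromal chemokine, was at 150, 879, 444 and 3259 CPM in macrophages.

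**Figure D5:**
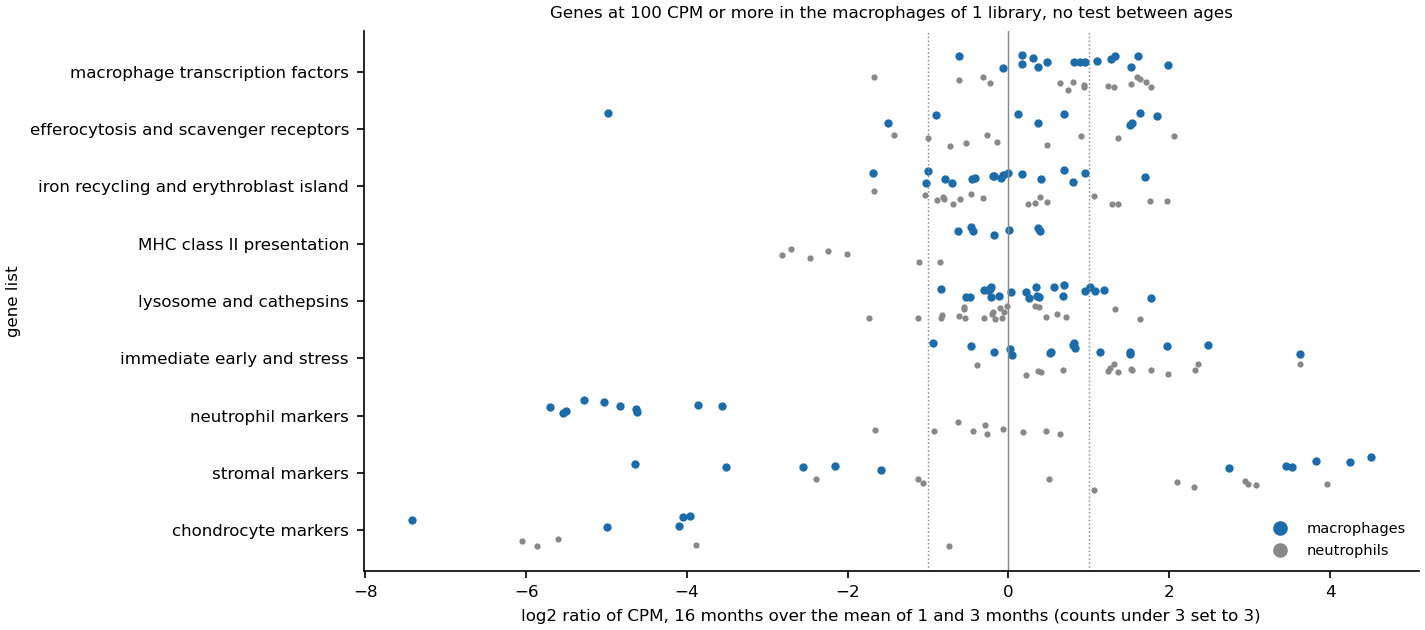
Each point is the log2 ratio of a gene at 16 months over the mean of 1 and 3 months, in macrophages (blue) and neutrophils (grey), for genes with 100 CPM or more in the macrophages of 1 of these libraries, with dotted lines at 2-fold. Neutrophil markers were lower in macrophages by more than 2-fold in 10 of 10, counting the rule genes S100a8 and S100a9. Stromal markers split into 6 higher and 5 lower. MHC class II genes stayed within 2-fold in macrophages while all of them had ratios below 0 in neutrophils.

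Some macrophage genes were higher at 16 months without an equal ratio in the other myeloid classes. Stab1 was at 129, 230, 121 and 357 CPM, a log2 ratio of 1.51 beside 0.14 in monocytes and -0.53 in neutrophils. Pdgfb was at 31.6, 59.0, 44.9 and 170 CPM, with a ratio of 2.15 and with at most 1 UMI in the monocytes of any library. Abca1 was at 110, 113, 140 and 390 CPM, a ratio of 1.64 beside -0.35 and 0.91, and Psap, the precursor of lysosomal activators, at 1478, 1753, 3501 and 5671 CPM, a ratio of 1.19 beside -0.26 and 0.38. The 16 month value was the highest of the 4 for each of these. Maf, at 564 CPM, was highest at 16 months too, but it had ratios of 1.53, 2.21 and 1.71 in macrophages, monocytes and neutrophils.

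Others were lower. Cd209f was at 281, 91.1 and 127 CPM in the 3 younger libraries and had 0 UMIs at 16 months, which allow up to 6.46 CPM. Ccl8 was at 542, 488, 332 and 105 CPM and Il18 at 146, 172, 181 and 62.4 CPM. Of the rule genes, C1qa was at 5244, 5355, 5023 and 3001 CPM, with C1qb and C1qc lowest at 16 months as well. Fn1, fibronectin, was at 159, 584, 283 and 8.61 CPM. It is 1 of 6 monocyte markers at 100 CPM, of which 5 were at least 2-fold lower at 16 months (Chil3, Fn1, Ly6c2, Plac8 and S100a4).

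Vcam1, Slc40a1 and Hmox1 were highest at 3 months, and other iron genes were not. Vcam1 was at 315, 911, 1602 and 913 CPM, Slc40a1 at 65.5, 204, 493 and 243 CPM and Hmox1 at 422, 306, 1395 and 527 CPM. At 3 months all 3 lay over the other libraries beyond their Poisson intervals, while the 1.5 and 16 month values of Vcam1 did not differ beyond theirs. Hebp1 was at 943, 809, 535 and 368 CPM and Blvrb at 582, 440, 536 and 344 CPM, both highest at 1 month and lowest at 16 months. Of 18 iron genes at 100 CPM, 1 was at least 2-fold higher at 16 months (Hp) and 2 lower (Hebp1 and Ftl1). Spic was at 146, 113, 207 and 198 CPM, and the 3 and 16 month values did not differ beyond their intervals.

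MHC class II genes were higher in the macrophages of the 3 and 16 month libraries than at 1 and 1.5 months. H2-Aa was at 3480, 3516, 6757 and 6738 CPM and H2-Eb1 at 2358, 2605, 5103 and 4801 CPM, in which the 2 younger libraries overlapped and lay under the 2 older ones. Cd74 was at 9280, 10919, 22090 and 10138 CPM, so only the 3 month library stood out. After thinning to 3000 UMIs, H2-Aa gave a UMI in 70.8%, 56.5%, 87.3% and 94.7% of macrophages, against 12.4%, 0%, 6.68% and 0.980% of neutrophils. Stmn1, a gene of dividing cells, was at least 2-fold lower at 16 months and Mki67 at least 2-fold higher, so cell cycle genes gave no common direction.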

How the data were processed

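Td+ marrow cells were profiled with droplet single-cell RNA sequencing. The authors deposited 1 matrix of raw UMI counts per library. The submitters' processing notes name Cell Ranger 3.0.2 and mm10. From the matrices, cells were filtered and assigned to classes by the rules given above, in Python 3.11.15. The members and gene lists were chosen with earlier results of these data known. Counts were summed per class and library and given as CPM with exact Poisson intervals, and shares with exact Clopper-Pearson intervals, at 95%. Shares with a UMI were taken after thinning each cell to 3000 UMIs, leaving out shallower cells. Classes within libraries were compared with the quasi-likelihood test of edgeR 4.0.16, with library as a block and Benjamini-Hochberg adjustment over all genes tested. The p-values rest on how much the difference between classes varied from library to library, each of a different age. The quasi-likelihood fit draws this spread of each gene toward that of all genes. With so few libraries, the p-values rest in large part on the shared spread. They do not measure a spread between replicate pools of mice. The residual degrees of freedom were 2 in the comparison with monocytes and 1 in the Vcam1 comparison. Beside the members of the lists, genes were named by rule: the 15 higher and 10 lower than in monocytes, and 10 each way in the Vcam1 comparison, with the largest changes among those called, at a mean of 50 CPM or more in the higher class and with the same direction in every library, and for ages the 8 each way with the largest ratios at 100 CPM or more in 1 library. Scripts were tested on simulated data. The alternatives comprised DESeq2 1.42.0, other size factors, no filter on low counts, no library block, each library left out, thinned cells, other cell limits and lineage-marked cells left out. Cell types were set by these rules, since no cell annotation was used here. Some genes of the lists and of the naming rule are not reported here.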

Additional observations from a re-analysis of the deposited data

How the results depend on the processing

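The comparison with monocytes gave 506 genes higher and 335 lower without the replicate block of library, and 713 and 556 with each cell thinned. Leaving out 1 library at a time gave 938 to 1115 higher and 707 to 815 lower. The Vcam1 comparison gave 0 and 0 without the replicate block, 33 and 34 with DESeq2, 359 and 337 with relative log expression size factors, 238 higher with no filter on low counts, 38 and 40 without lineage-marked cells, and 87 higher with thinned cells. In alternatives chosen after seeing the data, it gave 52 lower with at least 5 cells a side, and 245 and 227 without shared barcodes. It could not be fitted with a library left out. Of the genes named in it, 148 values stayed on their side of the threshold, 27 lost the call and none reversed. The replicate numbers are all 1 in the labels, so they pair no samples. Requiring both Ms4a7 and Adgre1 moved the macrophage share to 4.97% at 1 month and 5.17% at 3 months. Leaving out lineage-marked cells moved it to 3.44%, 5.65% and 0.440% at 1, 3 and 16 months, and allowing 10% mitochondrial UMIs to 9.003% and 1.04% at 3 and 16 months. Without lineage-marked cells, 27 macrophages remained at 16 months and no comparison of ages was made. Of the values by age, 53 stayed within their spread and 24 moved.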
